A study of Homo sapiens with 8 samples.

Results

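The 37 genes of the human mitochondrial genome were followed in MOLM-13, a cell line from a human acute myeloid leukemia. They were taken as every gene whose GENCODE release 29 symbol starts with MT-, matched by Ensembl identifier, and they make up 37 of the 58735 genes in the deposited count files. The set holds 2 ribosomal RNA (rRNA) genes, 13 protein genes and 22 transfer RNA (tRNA) genes. Of these, 26 passed the filter on low counts: both rRNA genes, all 13 protein genes and 11 of the 22 tRNA genes. The study asked how resistance to busulfan, a DNA-alkylating drug, arises over repeated treatment courses. The libraries analysed were untreated parental MOLM-13 cells (labelled as replicate 2) and the vehicle control cultures after DMSO courses 1, 3 and 5. The vehicle cultures were kept in parallel with the busulfan cultures in 1% DMSO and received no busulfan. Each of the 4 groups had 1 library. For all 4 the labels give 10% to 20% fetal bovine serum, as a range without a value per library. Parental replicate 1 and the cultures given busulfan are not analysed here. The labels give at most 20 passages for parental cells and at most 60 for the resistant cells, and none for the DMSO cultures, so passage and course cannot be told apart.

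Gene counts ranged from 44795976 to 56825811 per library. All 11 acute myeloid leukemia and monocytic markers examined averaged at least 5 CPM (gene counts scaled to a common library size), and their summed level was between 2809 and 4093 CPM. Summed erythroid markers reached at most 0.023 CPM, B cell markers 2.72 CPM, T cell markers 4.31 CPM, fibroblast markers 3.25 CPM and epithelial markers 40.2 CPM. The epithelial maximum, in parental cells, came almost wholly from KRT18 (28.5 CPM) and KRT8 (11.6 CPM). Endothelial markers summed to 130 to 184 CPM, nearly all of it from PECAM1 (128 to 184 CPM). VWF reached at most 2.275 CPM, and CDH5 had no count in any library.

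The mitochondrial genome is a small circle present in many copies per cell. Both of its strands are transcribed as long precursors that are cut into separate RNAs, largely at the tRNAs that lie between the other genes. The strand named heavy carries most genes, among them both rRNAs of the mitochondrial ribosome. The strand named light carries MT-ND6 and a minority of the tRNAs. The protein genes encode core subunits of respiratory chain complexes I, III and IV and of the ATP synthase, complex V, while the other subunits come from nuclear genes. Most heavy-strand mRNAs carry a poly(A) tail, the rRNAs have very short tails, and MT-ND6 mRNA is known to lack a stable one. The labels name a TruSeq RNA kit and do not say how RNA was selected.

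The strands give their transcripts different base compositions, shown here by the first 60 bases of the light-strand mRNA MT-ND6 and of 2 heavy-strand mRNAs. MT-CO3 encodes subunit 3 of cytochrome c oxidase and MT-CYB encodes cytochrome b. Sequences are those of the GENCODE release 29 transcripts, 5′ to 3′, and capitals mark guanine.
MT-ND6: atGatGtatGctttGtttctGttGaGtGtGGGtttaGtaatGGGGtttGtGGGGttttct
MT-CO3: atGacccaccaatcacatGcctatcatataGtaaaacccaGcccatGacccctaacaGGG
MT-CYB: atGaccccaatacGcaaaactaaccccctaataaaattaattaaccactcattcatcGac
Guanine made up 35.6% of the MT-ND6 transcript and between 6.28% and 16.2% of the 12 heavy-strand protein transcripts, whose median was 11.2%. Cytosine was the reverse, at 7.05% of MT-ND6 and 29.5% to 36.0% of the others.

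A few tRNAs are shown whole, because later values turn on them. MT-TP (proline) and MT-TE (glutamate) are on the light strand, and MT-TT (threonine) is a heavy-strand gene that had the highest tRNA counts.
MT-TP: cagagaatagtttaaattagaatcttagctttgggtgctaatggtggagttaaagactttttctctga
MT-TE: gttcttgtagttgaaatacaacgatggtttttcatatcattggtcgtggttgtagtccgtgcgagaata
MT-TT: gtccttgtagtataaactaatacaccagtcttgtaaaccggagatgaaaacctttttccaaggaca

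Mitochondrial genes took a smaller share of RNA in the DMSO course 5 library than in any other. Their 37 genes held 13.57% of gene counts in the parental library, 14.36% in course 1, 15.11% in course 3 and 9.22% in course 5. The counting interval of the course 5 value (exact binomial, 95%) ran from 9.21% to 9.22%. Here and below such intervals cover counting error only, and with 1 library per group there is no replicate to compare with. Summed over all 37 genes, CPM differed from the parental library by log2 ratios of 0.20 (course 1), 0.23 (course 3) and -0.52 (course 5). All 3 ratios share the parental library. Scaling to total gene counts shifts every ratio by -0.11, -0.08 and -0.04 in courses 1, 3 and 5, so a gene whose ratio is positive by less than that, as MT-CO1 and MT-ND4 are in course 1, turns negative. In bulk RNA, fewer cells of a type and less RNA per cell cannot be told apart, and a lower RNA level is no measure of genome copy number. Reads aligned to several places, which are counted in no gene, made up 13.86%, 15.39%, 14.24% and 21.33% of counted reads in the same order, so they were also highest in course 5. The part of those reads in the lower share was not tested. With them and the other uncounted reads in the denominator, the mitochondrial share was 10.2%, 10.5%, 11.4% and 6.47%, lowest again in course 5.

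**Figure D1:**
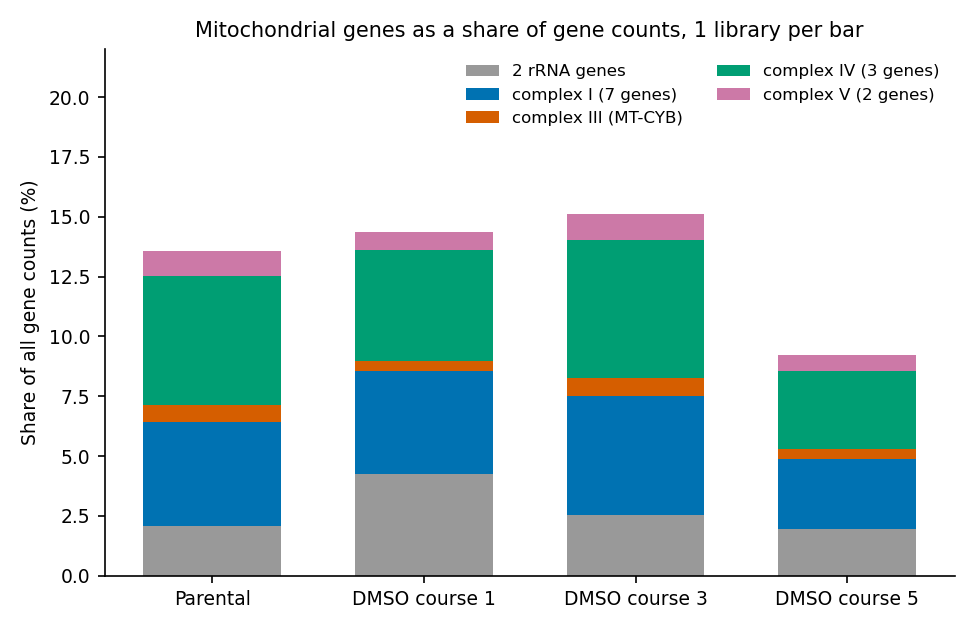
Share of all gene counts (%) held by the mitochondrial rRNA genes and by the protein genes of each respiratory complex, stacked, with 1 bar per library. The grey rRNA segment is tallest in DMSO course 1 (4.23%), and the whole bar is shortest in course 5 (9.22%). The tRNA genes, at most 0.00603%, are too small to draw.

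The 2 ribosomal RNAs stood out in DMSO course 1. Summed rRNA was 20103 CPM in the parental library, 43993 in course 1, 25873 in course 3 and 19480 in course 5. The course 1 level was 2.19-fold the parental level, a log2 ratio of 1.13, against 0.36 in course 3 and -0.05 in course 5. The 13 protein genes summed to 110217, 105308, 127140 and 71714 CPM, with log2 ratios of -0.07, 0.21 and -0.62. So course 1 had more rRNA with about the parental amount of mRNA, and course 5 had about the parental amount of rRNA with less mRNA. Within the mitochondrial genome alone, where scaling to nuclear genes plays no part, rRNA was 15.4% of rRNA and protein counts in the parental library, 29.5% in course 1, 16.9% in course 3 and 21.4% in course 5. The parental library had the lowest rRNA fraction and the course 1 library the highest.

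The rRNAs did not keep a fixed ratio to each other. MT-RNR1, the 12S rRNA of the small ribosomal subunit, was at 2995 CPM in parental cells, 8329 in course 1, 2094 in course 3 and 2377 in course 5. MT-RNR2, the 16S rRNA of the large subunit, was at 17109, 35665, 23779 and 17102 CPM. In course 3 the 2 genes lay on opposite sides of the parental level, with log2 ratios of -0.52 for MT-RNR1 and 0.47 for MT-RNR2. Counts of MT-RNR2 were 5.71 times those of MT-RNR1 in the parental library, 4.28 times in course 1, 11.4 times in course 3 and 7.19 times in course 5. Both genes come from the start of the same heavy-strand precursor. Their ratio was lowest in course 1, which had the highest summed rRNA, but highest in course 3, which had the next highest sum.

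Genes listed for RNAs that mostly lack a poly(A) tail (replication-dependent histone mRNAs, small nucleolar and signal recognition particle RNAs) were measured beside the rRNAs. The 23 listed genes summed to 87.5 CPM in the parental library, 169 in course 1, 39.4 in course 3 and 67.9 in course 5. Of the 23, RN7SK, RN7SL1, RPPH1, SCARNA2 and RNU12 had no count in any library. The sum rested mainly on the histone genes HIST1H2AC, HIST1H1C and HIST1H2BD, joined in course 5 by RN7SL2. HIST1H1C was at 15.9, 24.2, 8.60 and 10.0 CPM. Every other listed histone gene, and SNORD3A, stayed under 5 CPM in all libraries. Only 4 genes averaged at least 5 CPM. HIST1H2AC, a histone H2A gene and the largest of them, was at 55.9, 122, 25.0 and 23.9 CPM. HIST1H2BD, a histone H2B gene, was at 6.98, 10.6, 2.01 and 2.11 CPM, and RN7SL2, a signal recognition particle RNA, at 4.11, 5.27, 1.55 and 21.1 CPM. The summed list had the same order of libraries as MT-RNR1, highest in course 1 and lowest in course 3. Its largest gene, HIST1H2AC, was lowest in course 5 instead. MT-RNR2 was also highest in course 1 but was above the parental level in course 3. Whether the RNAs counted for these few histone genes lacked a tail is not known from the counts, so the shared order of libraries is no gauge of it. The part of tail-dependent recovery in the rRNA values was not tested.

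Protein gene levels per length kept one broad order in all libraries. Per kb of gene, the cytochrome oxidase genes MT-CO1, MT-CO2 and MT-CO3, subunits of complex IV, were the 3 highest in every library. Parental values were 16674, 17037 and 18627 CPM per kb for them. MT-ND6, a complex I subunit, was the lowest in every library, at 338, 481, 305 and 149 CPM per kb. The highest gene exceeded MT-ND6 55.2-fold in parental cells, 36.4-fold in course 1, 70.5-fold in course 3 and 78.4-fold in course 5. Among the 12 heavy-strand genes the highest exceeded the lowest by only 4.37 to 4.67-fold. MT-ND5 was the lowest of those 12 in every library but course 1, where MT-CYB was. Neighbours in the order, such as the 3 oxidase genes, changed places between libraries, and with 1 library per group their order has no spread to be judged against.

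**Figure D2:**
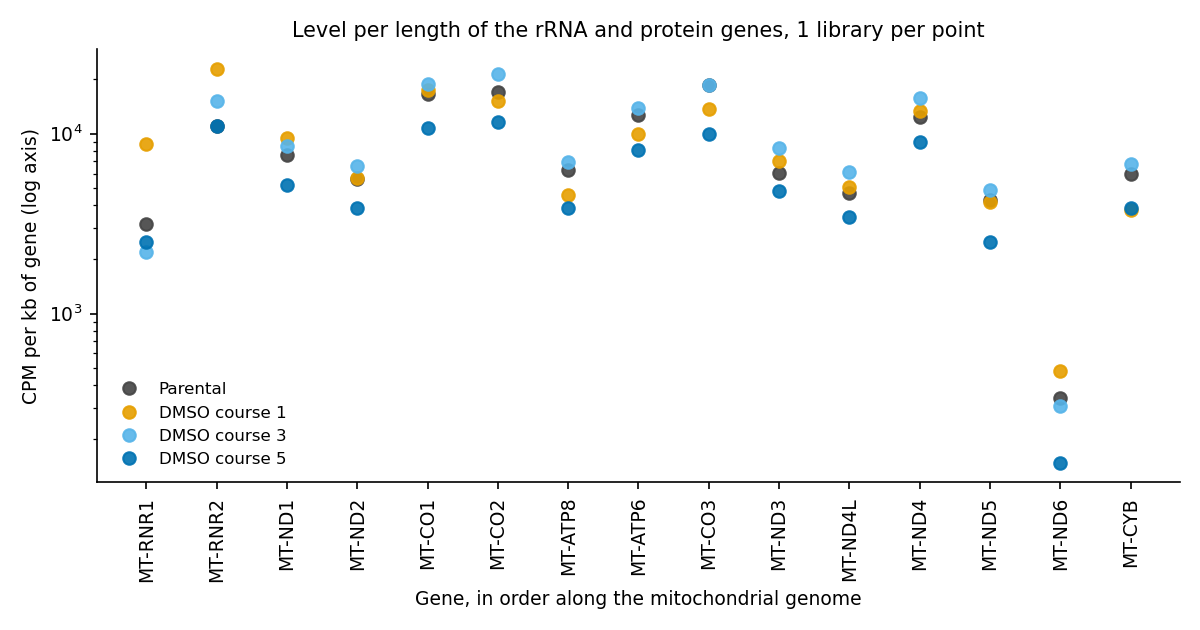
CPM per kb of gene (log axis) for the 2 rRNA and 13 protein genes in order along the mitochondrial genome, with 1 point per library. MT-ND6 lies far below the other genes in every library, and the orange course 1 points of MT-RNR1 and MT-RNR2 lie above their other points.

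Complex I genes were lowest in course 5 and, apart from MT-ND1 and MT-ND6, highest in course 3. The 7 genes, subunits of NADH dehydrogenase, summed to 41499.8 CPM in parental cells, 45087 in course 1, 50229 in course 3 and 28627 in course 5. MT-ND1 was at 7287, 9047, 8108 and 4953 CPM. MT-ND2 was at 5817, 5923, 6911 and 4004 CPM. These 2 genes, the first protein genes after the rRNAs, differed in which library was highest: course 1 for MT-ND1 and course 3 for MT-ND2. MT-ND3 was at 2077, 2444, 2881 and 1665 CPM. MT-ND4L was at 1389, 1492, 1806 and 1017 CPM, and MT-ND4, which shares a bicistronic mRNA with it, at 17028, 18366, 21595 and 12389 CPM. MT-ND5 was at 7724, 7562, 8768 and 4522 CPM. All 6 heavy-strand complex I genes were lowest in course 5, with log2 ratios from -0.32 (MT-ND3) to -0.77 (MT-ND5).

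Complex III has a single mitochondrial subunit, MT-CYB. It was at 6786 CPM in parental cells, 4298 in course 1, 7697 in course 3 and 4391 in course 5. The course 1 log2 ratio was -0.66, the lowest of the 13 protein genes there. It was the only protein gene at least 1.5-fold lower than parental in that library, 1 of 13, where 14.1% of the 10710 genes averaging at least 5 CPM were as far down and 12.5% as far up. No protein gene was 1.5-fold higher. Of the counts of MT-CYB and its upstream heavy-strand neighbour MT-ND5, MT-CYB held 46.8% in parental cells and 36.2%, 46.7% and 49.3% in courses 1, 3 and 5. The course 1 library stood apart.

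Complex IV genes summed to 51967 CPM in parental cells, 48234 in course 1, 58317 in course 3 and 32371 in course 5. MT-CO1, the catalytic subunit, was at 25711, 26998, 29091 and 16562 CPM. MT-CO2 was at 11653, 10439, 14696 and 7971 CPM, and MT-CO3 at 14603, 10797, 14530 and 7838 CPM. MT-CO3 was lower relative to the other protein genes in each DMSO library. Its share of protein-gene counts was 13.2% in parental cells, 10.3% in course 1, 11.4% in course 3 and 10.9% in course 5. MT-ND3, the next protein gene downstream, went the other way at 1.88%, 2.32%, 2.27% and 2.32%. These 2 genes are parted by a tRNA gene, MT-TG, that had no count in any library. A read that touches MT-TG and a neighbouring gene is counted in neither, so this need not mean that MT-TG RNA was absent.

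Complex V genes lie on one mRNA and overlap. MT-ATP8 was at 1293 CPM in parental cells, 940.4 in course 1, 1440.2 in course 3 and 795 in course 5. MT-ATP6, the proton channel subunit, was at 8671, 6749, 9458 and 5529 CPM. Both were lower in course 1 than in parental cells, with log2 ratios of -0.46 and -0.36, and slightly higher in course 3. The ratio of MT-ATP8 to MT-ATP6 counts stayed between 0.139 and 0.152, and that of the other bicistronic pair, MT-ND4L to MT-ND4, between 0.0812 and 0.0836. The overlap of the first pair spans 46 bases, 22.2% of MT-ATP8, printed here in capitals with what follows or precedes it.
MT-ATP8 end: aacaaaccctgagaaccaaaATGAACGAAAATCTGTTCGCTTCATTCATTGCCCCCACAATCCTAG
MT-ATP6 start: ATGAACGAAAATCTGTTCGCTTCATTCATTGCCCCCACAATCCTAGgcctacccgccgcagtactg
Reads that touch 2 genes were put in a summary row rather than in a gene, which held 1.84% to 1.96% of counted reads per library over all genes. How many of those reads lay in the MT-ATP8 and MT-ATP6 overlap is not known from the counts, so the levels of these genes are uncertain.

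Set side by side, the complexes spread apart in course 1 and lay close together in courses 3 and 5. Log2 ratios of the summed genes in course 1 were 0.12 for complex I, -0.66 for complex III, -0.11 for complex IV and -0.37 for complex V. In course 3 they were 0.28, 0.18, 0.17 and 0.13. In course 5 they were -0.54, -0.63, -0.68 and -0.66. Complex I made up 37.7% of protein-gene counts in parental cells, 42.8% in course 1, 39.5% in course 3 and 39.9% in course 5. Expressed as each gene's log2 ratio of its share of protein-gene counts to its parental share, the SD over the 13 genes was 0.34, 0.16 and 0.22 in courses 1, 3 and 5.

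In course 5 all 13 protein genes were below the parental level, with a median log2 ratio of -0.63. Over the 10710 genes averaging at least 5 CPM, 5046 were below it and the median was 0.03. Of the 13, 7 were at least 1.5-fold lower and none as much higher, where 12.2% and 11.1% of those 10710 genes were. At 2-fold the only protein gene lower was MT-ND6, where 4.92% of genes were as far down. No protein gene was 2-fold lower in course 1, where 4.19% of genes were. The closest genes to the 1.5-fold limit were MT-CYB at -0.63 just past it and MT-ND1 at -0.56 just short of it. In course 3, none of the 13 was 1.5-fold higher or lower, beside 6.49% and 6.57% of genes. The median of the 13 was 0.18 there and 0.03 in course 1, beside 0.01 and 0.02 over all those genes. Position along the heavy strand showed no steady relation to the ratios: Spearman's rho of gene order against the log2 ratio, over 12 heavy-strand protein genes that share libraries and precursor, was -0.24, 0.32 and 0 in courses 1, 3 and 5, given as a description.

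**Figure D3:**
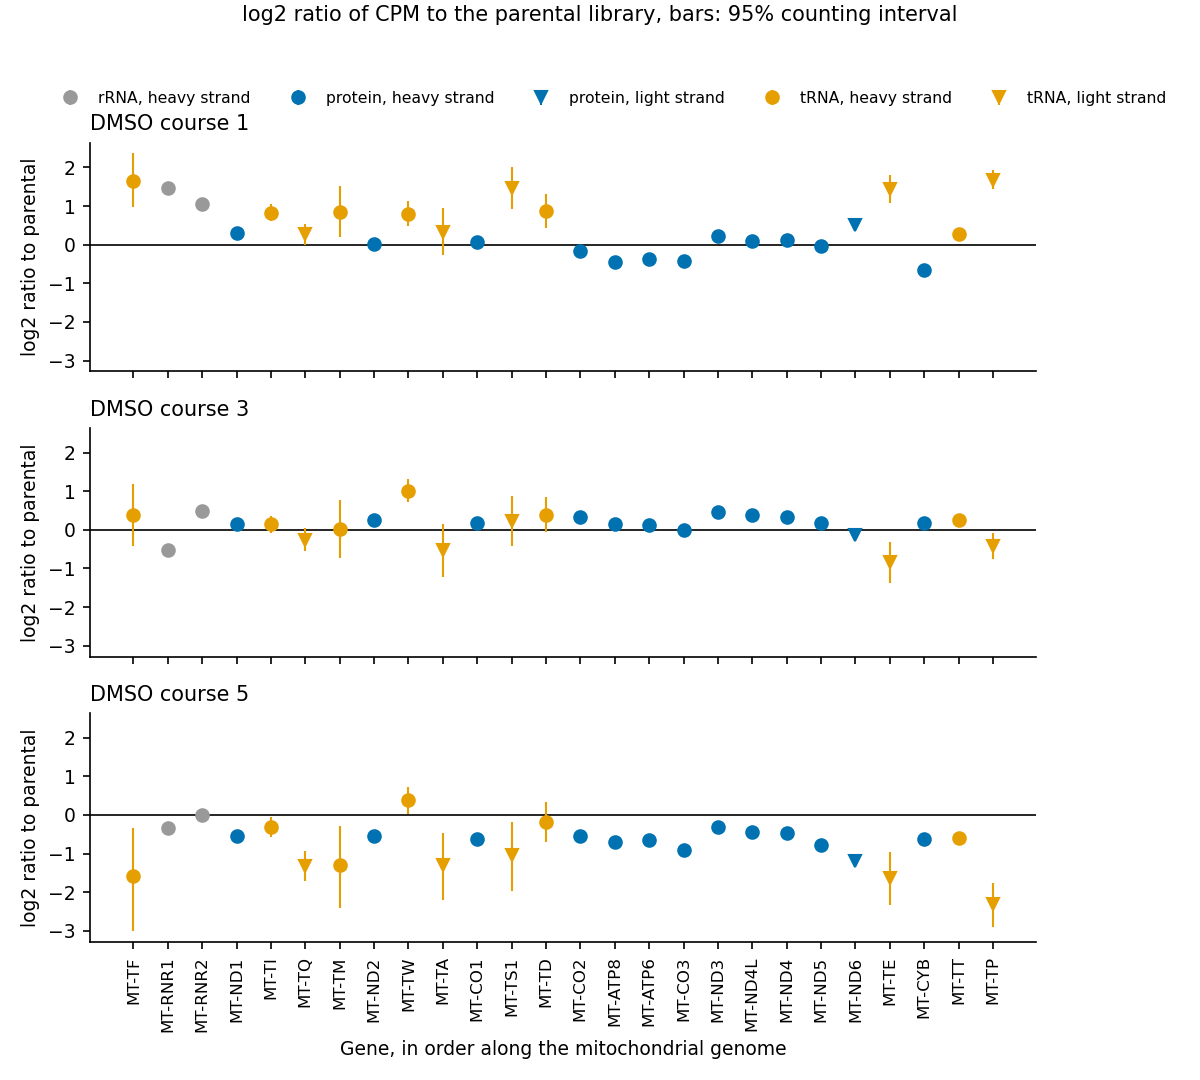
Log2 ratio of CPM to the parental library for the 26 genes past the filter, in order along the mitochondrial genome, with 1 panel per DMSO library. Circles are heavy-strand and triangles light-strand genes, and bars are 95% counting intervals. In course 1 rRNA (grey) and tRNA (orange) genes lie above 0 while protein genes (blue) lie on both sides, and in course 5 all protein genes lie below 0.

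The light-strand genes past the filter were highest in course 1 and lowest in course 5, and so were most heavy-strand tRNAs, while most heavy-strand mRNAs were highest in course 3. MT-ND6, the only light-strand protein gene, was at 177 CPM in parental cells, 252 in course 1, 160.1 in course 3 and 78.1 in course 5, from 10483, 10868, 8038 and 3556 counts. Its log2 ratios were 0.51 (counting interval 0.47 to 0.55), -0.15 (-0.19 to -0.10) and -1.18 (-1.24 to -1.13). For the summed 12 heavy-strand protein genes they were -0.07, 0.21 and -0.62. MT-ND6 thus held 0.161% of protein-gene counts in parental cells, 0.2396% in course 1, 0.126% in course 3 and 0.109% in course 5. The 4 counting intervals do not overlap, but at these counts they are narrow and hold no spread between libraries.

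Summed, the tRNAs of the light strand had the same order of libraries as MT-ND6. Light-strand tRNAs summed to 632 counts in parental cells, 1002 in course 1, 414 in course 3 and 160 in course 5, or log2 ratios of CPM of 1.12, -0.37 and -1.61. Heavy-strand tRNAs summed to 1608, 1701, 1707 and 927 counts, with ratios of 0.54, 0.32 and -0.42. The light strand's part of all tRNA counts was 28.2% (26.4% to 30.1%) in parental cells, 37.1% (35.2% to 38.9%) in course 1, 19.5% (17.9% to 21.3%) in course 3 and 14.7% (12.7% to 17.0%) in course 5. Each of the 6 light-strand members past the filter, MT-ND6 and 5 tRNAs, was highest in course 1 and lowest in course 5. Of the 20 heavy-strand members past the filter, 8 were highest in course 1, 11 in course 3, and 17 were lowest in course 5. Split by kind, 5 of the 6 heavy-strand tRNAs and both rRNAs were highest in course 1, against 1 of the 12 heavy-strand protein genes, and 5 of those 6 tRNAs were lowest in course 5. The share of all genes highest or lowest in each library was not counted, so whether these counts stand out cannot be told. Members of a strand also share libraries and precursors and are not independent. Median log2 ratios of the 5 light-strand tRNAs were 1.43, -0.42 and -1.32 in courses 1, 3 and 5, beside 0.84, 0.32 and -0.46 for the 6 heavy-strand tRNAs. In course 3 the median log2 ratio was -0.34 over the 6 light-strand members and 0.22 over the 20 heavy-strand members.

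Light-strand genes are given here in the order in which that strand is read from its promoter, and those other than MT-TP were chosen for naming after their values were seen. MT-TP, the first, had 199, 463, 126 and 31 counts, or 3.36, 10.7, 2.51 and 0.68 CPM. Its log2 ratios were 1.68, -0.42 and -2.31. MT-TE, the second, had 96, 189, 46 and 24 counts and ratios of 1.43, -0.83 and -1.62. Among the 6 light-strand members past the filter, these 2 had the widest range of CPM over the libraries, 15.8-fold and 8.33-fold. The heavy-strand tRNA MT-TF ranged 9.37-fold. MT-TS1, a serine tRNA beyond MT-ND6, had 43, 86, 43 and 16 counts and ratios of 1.46, 0.24 and -1.05. MT-TA (alanine) had 51, 47, 30 and 16 counts and ratios of 0.34, -0.53 and -1.30. MT-TQ (glutamine), the last, had 237, 208, 169 and 73 counts and ratios of 0.27, -0.25 and -1.32. In course 1 the ratios of the tRNAs farthest from the promoter, MT-TA and MT-TQ, were the smallest of the 6, and their counting intervals included 0. MT-TY (tyrosine) had 6, 9, 0 and 0 counts, and MT-TC and MT-TN had none in any library. Reads were counted by strand only as far as the files' names tell, and the labels do not say whether the kit keeps it. Heavy-strand genes held 99.8% to 99.9% of protein-gene counts. They are 12 of the 13 protein genes, so this share does not tell whether reads were counted by strand. MT-TS1 and MT-TQ had counts with heavy-strand genes on both sides, while tRNAs between genes of their own strand had none. Counting by strand was not tested.

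**Figure D4:**
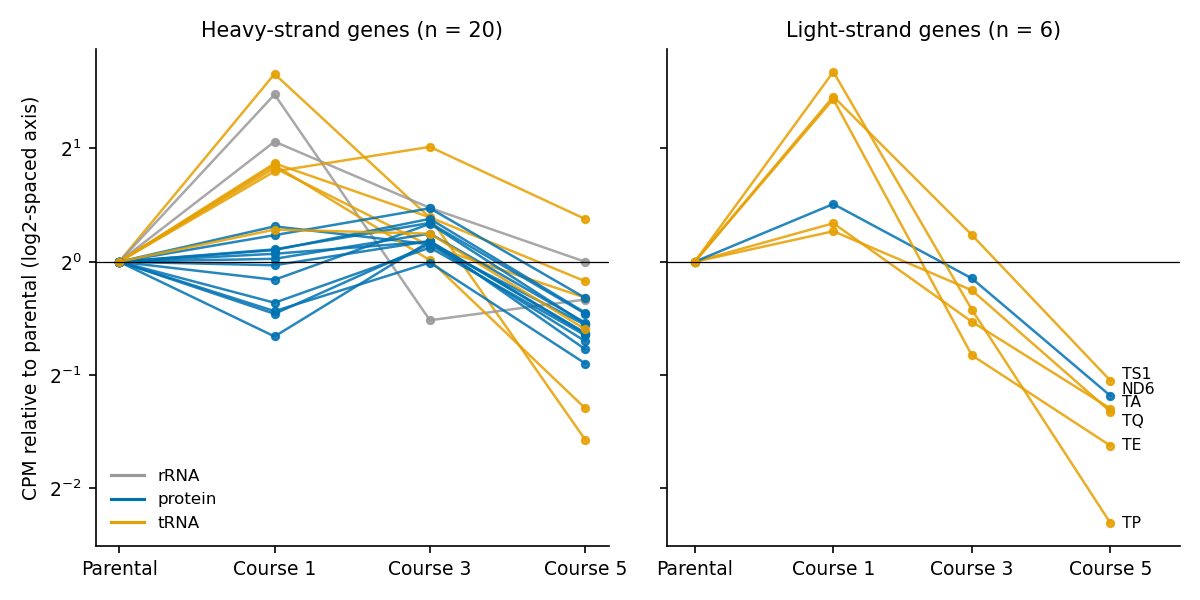
CPM relative to the parental library (log2-spaced axis) over the 4 libraries, 1 line per gene, for the 20 heavy-strand genes (left) and the 6 light-strand genes (right) past the filter. Every light-strand line peaks in course 1 and ends lowest in course 5, while most blue heavy-strand protein lines peak in course 3.

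Mature tRNAs are short and heavily modified, and their counts were low. The 22 genes summed to 2240, 2703, 2121 and 1087 counts, or 37.9, 62.7, 42.2 and 23.9 CPM, and in log2 ratios 0.73, 0.16 and -0.67. Of the 22, 11 passed the filter, 10 had no count in any library (MT-TV, MT-TL1, MT-TN, MT-TC, MT-TK, MT-TG, MT-TR, MT-TH, MT-TS2 and MT-TL2), and the last was MT-TY with 15 counts in all. The 10 without a count each lie between genes of their own strand. Every tRNA with a count has an opposite-strand gene, or no gene, directly beside it. Reads that touch 2 genes were counted in neither, so a count of 0 need not mean that the RNA was absent. The part of such reads in the low tRNA counts was not tested. As to counting error, a count of 0 allows up to 3 counts, 0.0507 to 0.0696 CPM depending on the library. The 4 highest by mean CPM were MT-TT, MT-TI (isoleucine), MT-TP and MT-TW (tryptophan). MT-TT was at 16.8, 20.5, 19.97 and 11.1 CPM, so only its course 5 value lay below the parental level. MT-TI was at 5.49, 9.75, 6.05 and 4.41 CPM. MT-TW was at 2.49, 4.32, 5.02 and 3.23 CPM, with log2 ratios of 0.80, 1.01 and 0.38, and was above the parental level in all 3 DMSO libraries. No other member past the filter was above it in all 3. All 11 tRNAs past the filter were above the parental level in course 1, as both rRNAs were, and 10 of 11 were below it in course 5. Only 2 of them averaged 5 CPM, so the background given above, taken over genes of at least 5 CPM, does not cover the rest.

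Copies of mitochondrial genes in the nuclear genome can take reads from them. GENCODE release 29 names 407 such copies, of which 46 had a count, and summed they held 1.18%, 0.857%, 1.11% and 1.08% as many counts as the mitochondrial genes. The 3 highest held at least 99.04% of those counts in every library. MTATP6P1, a copy of MT-ATP6, had 74043, 42356, 68379 and 35799 counts, which is 14.4%, 14.6%, 14.4% and 14.2% of the MT-ATP6 counts. MTND2P28 had 3.15% to 3.42% of the MT-ND2 counts, and MTCO1P12 had 0.341% to 0.353% of the MT-CO1 counts. The ratio of each copy to its mitochondrial gene thus hardly moved while the genes themselves did. Log2 ratios of MTATP6P1 to parental were -0.35, 0.12 and -0.67, beside -0.36, 0.13 and -0.65 for MT-ATP6.

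The copies are near-identical to their genes, which the windows around the first difference of the first pair show, with the differing base in capitals.
MT-ATP6: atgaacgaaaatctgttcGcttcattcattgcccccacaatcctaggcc
MTATP6P1: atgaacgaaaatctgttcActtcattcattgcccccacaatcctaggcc
That difference is G19A, counted from 1 at the first base of MT-ATP6, with the mitochondrial base first. MTATP6P1 matched MT-ATP6 at 98.5% of 681 bases, with 10 mismatches and a longest identical stretch of 141 bases. MTND2P28 matched MT-ND2 at 98.4% with a longest stretch of 266 bases, and MTCO1P12 matched MT-CO1 at 98.7% with one of 245 bases. Where the reads given to the copies were transcribed was not tested. With each copy's counts added to its gene, the median protein log2 ratios stayed at 0.03, 0.18 and -0.63 in courses 1, 3 and 5.

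Nuclear genes for the same complexes stayed nearer to the parental level in course 5 than the mitochondrial ones. Of 35 nuclear complex I genes averaging at least 5 CPM, 20 were below the parental level, with a median log2 ratio of -0.04, where all 7 mitochondrial complex I genes were below it with a median of -0.54. Over all 10710 genes averaging at least 5 CPM, 5046 were below it, with a median of 0.03. The medians of the nuclear genes of complexes III (9 genes), IV (11) and V (18) were -0.11, -0.15 and -0.05. Complex II, which has only nuclear subunits, had a median of 0.05 over 4 genes. In course 1 the nuclear medians for complexes I, III, IV and V were -0.25, -0.19, -0.20 and -0.16, and in course 3 they were -0.11, -0.09, -0.19 and -0.15. No test of the difference between genomes was made, since genes are not replicates of a library.

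**Figure D5:**
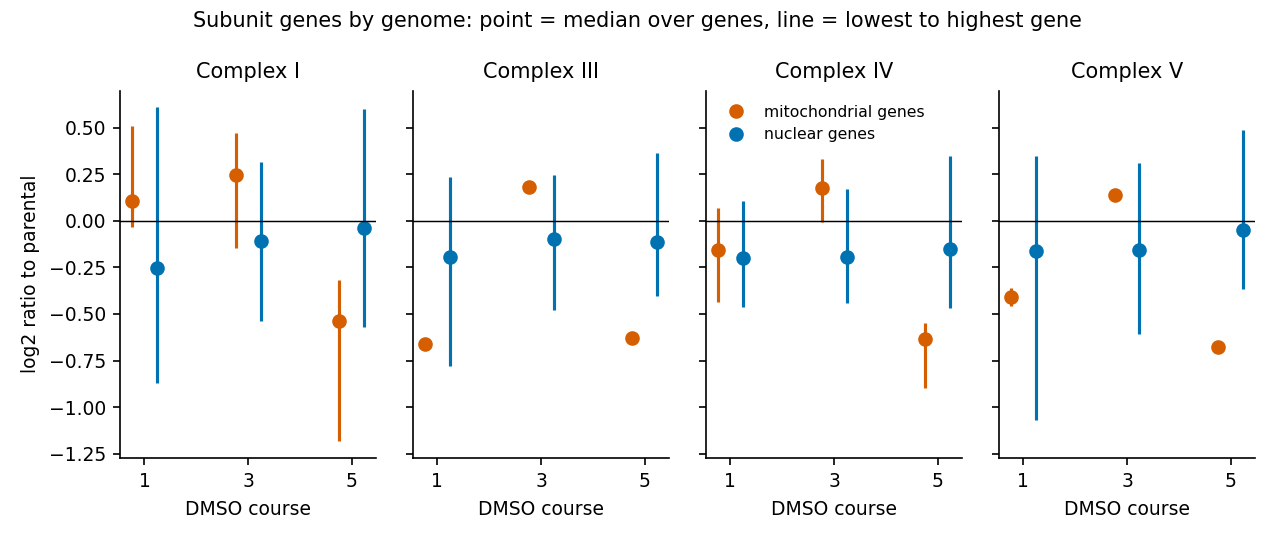
Log2 ratio of CPM to the parental library for subunit genes of complexes I, III, IV and V by DMSO course, mitochondrial (orange) and nuclear (blue) genes apart. Points are medians over genes and lines run from the lowest to the highest gene. In course 5 the mitochondrial medians lie between -0.54 and -0.68 and the nuclear medians between -0.04 and -0.15.

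Lists of nuclear genes that make, process and degrade mitochondrial RNA had their lowest medians in course 1, the library with the most rRNA. The 9 genes of mitochondrial transcription had median log2 ratios of -0.45, -0.03 and 0.07 in courses 1, 3 and 5, and 4 of 9 were at least 1.5-fold lower in course 1 (background 14.1%, as above). TFB2M, a transcription initiation factor, was at 44.5, 25.3, 43.6 and 51.9 CPM. MRPL12, a ribosomal protein that binds the mitochondrial RNA polymerase, was at 35.4, 15.6, 27.3 and 30.9 CPM. Of 12 RNA processing genes, all were below the parental level in course 1, where 5161 of the 10710 genes averaging at least 5 CPM were. At least 1.5-fold lower there were 6 of the 12, beside the same 14.1%. Medians of the 12 were -0.55, -0.10 and -0.04. TRNT1, which adds the CCA end to tRNAs, was at 20.7, 11.003, 24.2 and 25.5 CPM, and PUS1, a pseudouridine synthase, at 124, 67.5, 156 and 163 CPM.

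The 14 genes of mRNA stability and decay had medians of -0.44, -0.14 and -0.11, with 2 of 14 at least 1.5-fold lower in course 1, about the 14.1% of all genes. PNPT1, the exoribonuclease PNPase, was at 70.8, 32.3, 64.3 and 73.4 CPM, and REXO2, an oligoribonuclease, at 26.6, 18.0, 22.3 and 31.1 CPM. Genes of rRNA modification and ribosome assembly (13 of 14 averaging at least 5 CPM) had medians of -0.43, -0.04 and -0.00, with 4 of 13 at least 1.5-fold lower in course 1, beside the same 14.1%. DDX28, a helicase of the large subunit, was at 28.9, 13.6, 25.1 and 28.8 CPM, and MTG1, a GTPase of ribosome assembly, at 21.7, 12.7, 14.7 and 11.5 CPM. The 15 genes of mitochondrial DNA replication and nucleotide supply had medians of -0.34, -0.06 and 0.07, with 6 lower and 1 higher by 1.5-fold in course 1, where 14.1% of genes were lower and 12.5% higher. RNASEH1, which removes RNA from DNA, was at 17.1, 6.27, 16.1 and 22.9 CPM, and ATAD3A, a nucleoid-associated protein, at 43.97, 16.1, 33.8 and 34.5 CPM. By course 5 the medians of all 5 lists were within 0.11 of the parental level, while the mitochondrial mRNAs were not.

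With edgeR, tests over the 4 libraries called no mitochondrial gene. The 3 DMSO libraries against the parental library (edgeR's quasi-likelihood test, Benjamini-Hochberg adjusted p under 0.05) called 0% of 18612 genes, and the slope over 0, 1, 3 and 5 courses called 0% as well. Each test had 2 residual degrees of freedom, and its p-values rest on the spread among these single libraries, which may be technical. At an unadjusted p under 0.05 the first test had 1045 genes (5.61%) and no member. The slope had 2940 genes (15.8%) and 4 of 26 members (15.4%), a share near that of all genes. These were the light-strand genes MT-ND6, MT-TQ, MT-TP and MT-TE. MT-ND6 had the lowest adjusted p of the members in the slope, 0.265 by edgeR's quasi-likelihood test, with a slope of -0.28 log2 units per course. For the first test the lowest adjusted p of a member, by the same edgeR test, was 0.929, for MT-TW. limma-voom called no member in either test, and DESeq2 called none in the first, where it called 1.13% of genes. In the slope DESeq2 called MT-TP, 1 of 26 members, where it called 4.73% of genes. None of the 5 lists of factors or the nuclear subunits had a gene called by edgeR in either test.

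Leaving out the parental library changed the slope's calls. Over the 3 DMSO libraries alone, with 1 residual degree of freedom, 11 of 26 members had a negative slope at adjusted p under 0.05 by the edgeR test and none a positive one. Over all 18597 genes, 11.9% had a negative slope and 9.2% a positive one. They were both rRNAs, MT-ND1, MT-ND6 and 7 tRNAs (MT-TF, MT-TI, MT-TQ, MT-TM, MT-TS1, MT-TE and MT-TP). MT-TP had the lowest adjusted p of the members. With 1 library per course, the p-values of this fit rest on departure from a straight line over the courses, not on spread between replicates. The other 11 protein genes, each highest in course 3 among the DMSO libraries, were not called.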

How the data were processed

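RNA from MOLM-13 cultures was sequenced with a TruSeq RNA kit, per the labels' protocols. The authors deposited raw counts of reads by Ensembl gene, with 5 HTSeq summary rows. The submitters' processing notes list the build hg19 with TopHat2 2.0.11, HTSeq 0.6p1 and FastQC 0.11.5. All 58735 identifiers matched GENCODE release 29, which annotates GRCh38, so the build is uncertain and no coordinates are given. Transcript sequences were read by identifier from that release.

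Summary rows (24.6% to 29.8% of reads) were left out. CPM used TMM-scaled library sizes in edgeR 4.0.16 (R 4.3.3) over 18612 genes kept by filterByExpr (minimum count 10, total 15). limma 3.58.1 and DESeq2 1.42.0 were alternatives. Ratios between single libraries have exact binomial 95% intervals and no test. A 1.5-fold difference with an interval excluding equality counted as apart. Floors are 3 counts per library. Scripts were tested on simulated data.

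The members and lists were chosen with earlier results of these data known. All rRNA and protein genes were named, with the 4 highest tRNAs, any tRNA 1.5-fold apart in one direction in all 3 DMSO libraries (none), the 3 highest nuclear copies and up to 2 genes of widest range per list.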

Additional observations from a re-analysis of the deposited data

Results flagged for a closer look

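A handful of tRNA genes were at least 1.5-fold above the parental library in one DMSO library and at least 1.5-fold below it in another, with counting intervals that exclude equality. The difference between courses was not tested, as each has 1 library. The share of all genes that went both ways was not counted, so whether these genes stand out cannot be told. MT-TF (phenylalanine) had a log2 ratio of 1.66 in course 1 and -1.57 in course 5, from 27 parental counts against 62 and 7. MT-TM (methionine) had 0.85 and -1.29, from 35 counts against 46 and 11. MT-TS1 had 1.46 and -1.05. MT-TE had 1.43 in course 1, -0.83 in course 3 and -1.62 in course 5. MT-TP had 1.68 in course 1 and -2.31 in course 5. MT-TS1, MT-TE and MT-TP are on the light strand, while MT-TF and MT-TM are on the heavy strand.

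Reads aligned to several places, which enter no gene, made up 15.39%, 14.24% and 21.33% of counted reads in DMSO courses 1, 3 and 5, above the 13.86% of the parental library.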

How the results depend on the processing

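Values in this paragraph are in the order parental, course 1, course 3 and course 5, or without parental for ratios. With all counted reads as denominator the mitochondrial share of counts was 10.2%, 10.5%, 11.4% and 6.47%, and with nuclear copies added 13.7%, 14.5%, 15.3% and 9.32%. The rRNA share of mitochondrial counts was 15.2%, 29.2%, 16.7% and 21.1% with copies added, and 10.6%, 22.2%, 11.3% and 14.8% per kb. The MT-ND6 share of protein-gene counts per kb was 0.286%, 0.437%, 0.223% and 0.193%. Total-count scaling, which shifts all ratios by -0.11, -0.08 and -0.04, gave a median protein log2 ratio of -0.088, 0.11 and -0.67, so the course 1 median, near 0, turned negative. DESeq2 size factors gave 0.037, 0.18 and -0.62. The summed rRNA log2 ratio was 1.015, 0.29 and -0.089 under total counts, and 1.14, 0.36 and -0.036 under DESeq2 size factors. At 2-fold, 0 protein genes were lower in course 1 and 1 in course 5. Of the single-gene ratios recomputed, 67 moved by less than their counting interval, 68 by more, 0 of those at least 1.5-fold apart reversed, and the largest shift was 0.11.

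Calls over all genes depended on the tool and on single libraries. The DMSO libraries against parental gave 13 genes without the filter and 211 by DESeq2. Leaving out 1 DMSO library gave 12 to 2067 genes, the highest count without course 1. The slope gave 134 genes without the filter and 880 by DESeq2. Leaving out 1 library gave 3 to 3927 genes, the highest count without the parental library. Without course 1 the slope called 2884 genes (15.5%) and 2 of 26 members (7.69%), MT-ND6 and MT-TP. The cause was not tested. No paired analysis was possible because each group has 1 library and the groups share no replicate number that pairs them. Depth and the leaving out of reads that touch 2 genes may both limit the tRNA genes, and their parts were not tested. Of the tRNA genes, 11 had at most 15 counts in all.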
